A study of Mus musculus with 20 samples.

Results

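The 7 liver genes described here across surgery and oxygen exposure are C6, Susd4, Moxd1, Selenbp1, Selenbp2, Cib3 and Nudt7. They were picked by symbol, as genes thought to be held up by androgen outside the cytochromes P450 and the major urinary proteins, and are 7 of the 36106 genes in the counts table. Liver RNA came from male mice that were sham operated or orchiectomized, which removes the testes, and then kept for 2 weeks in normoxia or in intermittent hypoxia, repeated drops in oxygen. Among sham-operated mice 4 breathed normal air (Sham_Nx) and 5 had the hypoxia cycles (Sham_IH). Among orchiectomized mice 5 breathed normal air (ORX_Nx) and 5 had the hypoxia cycles (ORX_IH). Each library is named by its group and mouse number, and Sham_Nx mouse 1 was not analysed here. The strain, the age, the testosterone levels and the interval between surgery and exposure are not given in the sources used here.

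Male and female mouse livers differ in many transcripts, largely because growth hormone is released in pulses in males and more evenly in females. Hepatocytes read that pattern through the kinase JAK2 and the transcription factor STAT5B, and testosterone keeps the male pattern going. The 7 genes do unrelated work: C6 and Susd4 belong to complement, the blood protein cascade that tags and punctures microbes, while Selenbp1 and Selenbp2 are selenium-binding proteins. Moxd1 is a copper-dependent monooxygenase of the dopamine beta-hydroxylase family, Cib3 a calcium-binding protein and Nudt7 a peroxisomal enzyme that cleaves coenzyme A.

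Selenbp1 and Selenbp2 are close copies, of which one fell after orchiectomy and the other did not, so the bases just before their start sites are shown, 250 for each. They come from RefSeq on build GRCm38.p6, at chr3:94932833-94933082 for Selenbp1 and chr3:94693323-94693572 for Selenbp2, both on the plus strand. Capitals mark bases that differ between the aligned windows or have no partner in the other, within the stretch where both sequences align. The first lower-case bases of the Selenbp1 window lie before that stretch and were not compared, and its last ones align with bases past the start of Selenbp2 that are not shown.

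Selenbp1: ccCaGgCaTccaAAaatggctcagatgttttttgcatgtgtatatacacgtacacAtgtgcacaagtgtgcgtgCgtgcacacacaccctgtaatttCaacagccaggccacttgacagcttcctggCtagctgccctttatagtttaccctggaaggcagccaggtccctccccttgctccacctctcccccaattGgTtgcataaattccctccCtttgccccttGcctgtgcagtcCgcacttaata

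Selenbp2: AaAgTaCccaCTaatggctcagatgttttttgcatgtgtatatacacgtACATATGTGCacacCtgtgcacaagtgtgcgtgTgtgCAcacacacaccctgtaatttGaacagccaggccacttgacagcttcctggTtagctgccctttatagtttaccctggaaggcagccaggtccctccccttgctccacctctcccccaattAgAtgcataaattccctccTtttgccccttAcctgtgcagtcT

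Of 250 aligned columns 223, or 89.2%, held the same base. Both windows contain the TATA box letters TATAAA, searched on both strands like the motifs that follow, as do 12.4% of 32841 RefSeq windows of the same length. In both windows the match is on the minus strand only, printed above as tttata, and does not show a working TATA box. The letters TTCNNNGAA, the core of a STAT5 site, were found in the window of Moxd1 alone among the 7 genes and in 7.02% of all windows. The androgen receptor half-site letters AGAACA were found for 0 of the 7 genes and in 16.1% of all windows. All 7 genes were matched, through 9 windows, and a missing match says only that these letters are not in these 250 bases. Selenbp2 and Selenbp1 lie on chromosome 3 with the coding genes Cgn, Pogz and Psmb4 between them. C6 lies on chromosome 15, Susd4 on chromosome 1, Moxd1 on chromosome 10, and Cib3 and Nudt7 both on chromosome 8, and the older annotation at hand shows no gene overlapping any of the 7.

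After orchiectomy 4 of the 7 genes fell in both exposures: C6, Susd4, Selenbp2 and Nudt7. Moxd1 and Cib3 were lower in fitted mean without passing the test in either exposure alone, and Selenbp1 did not fall at all, so the description of the set as held up by androgen does not cover it. A gene was called changed at a Benjamini-Hochberg (BH) adjusted p under 0.05 in edgeR's quasi-likelihood test over 16164 genes. In normoxia 4 of 7 were called lower where 6.46% of all genes tested were, and in intermittent hypoxia 4 of 7 where 1.57% were. The median log2 fold change of the 7 was -1.93 in normoxia and -1.66 in intermittent hypoxia, and that of all genes tested was 0.013 and -0.004. Averaged over both exposures 6 of 7 fell and Selenbp1 rose, against backgrounds of 10.1% lower and 11.8% higher. The genes were chosen with results of these data known, so these counts describe the set and are not independent evidence. All 7 were tested, but Moxd1 entered through sham libraries only: 6 of them and 0 orchiectomized libraries held the count the filter asked for.

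**Figure D1:**
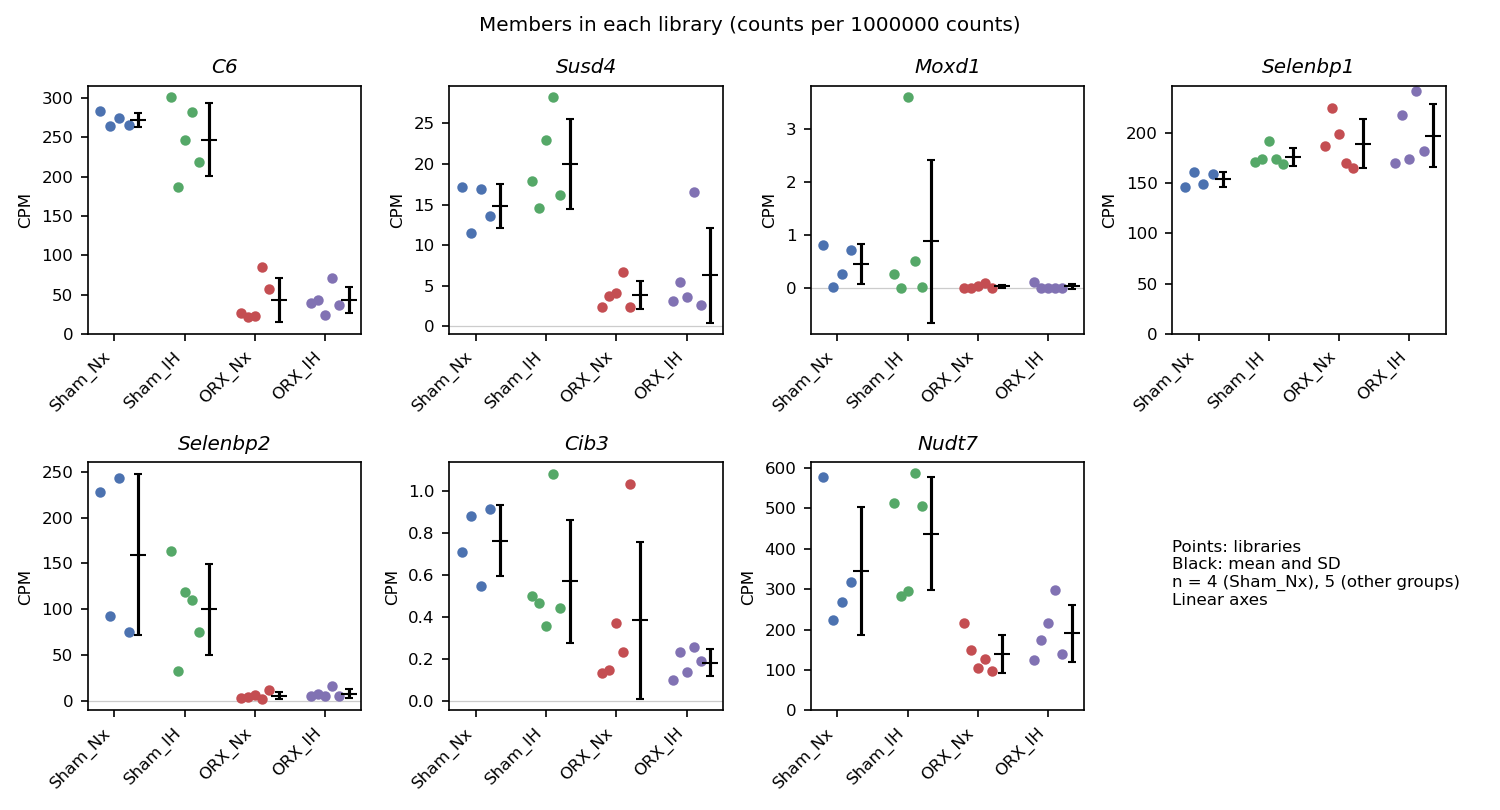
Each point is the CPM of 1 of the 7 genes in 1 library, on a linear axis, by group, with black bars for mean and SD (n = 4 in Sham_Nx, 5 elsewhere). C6 and Selenbp2 show every orchiectomized library under every sham library, and Selenbp1 shows no fall.

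The whole series gave libraries of 29.3 to 69.6 M estimated counts. The operation label was checked with 3 androgen-dependent genes: Elovl3, Hsd3b5 and Cyp4a12a were lower in every orchiectomized library than in every sham library of the same exposure, with log2 fold changes from -6.38 to -3.92. Hepatocyte markers summed to between 82200 and 129000 counts normalised to library size (CPM) in every library, with 0 of 9 markers at 0. Some libraries were higher in genes of other tissues: 14 skeletal muscle genes summed to 1130 CPM in ORX_IH 1, 665 in ORX_IH 2, 191 in Sham_Nx 2 and 49.9 in Sham_Nx 3, and to at most 17.2 elsewhere. Pancreatic acinar genes summed to 1070 CPM in Sham_IH 5, 442 in Sham_Nx 5 and 186 in ORX_IH 1, and to at most 19.2 elsewhere. In ORX_Nx 4 and ORX_Nx 5, 13 acute phase genes summed to 27100 and 21300 CPM against 11400 to 17800 elsewhere, and 11 Kupffer cell genes to 1120 and 732 CPM against 176 to 477. In whole tissue, fewer cells of a type and less RNA per cell cannot be told apart.

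C6 encodes a protein of the membrane attack complex, the pore that complement builds in target membranes, and the liver secretes it into blood. Its identifier in the files is ENSMUSG00000022181. In Sham_Nx its level was 283, 264, 274 and 266 CPM in mice 2 to 5. In Sham_IH it was 301, 186, 246, 283 and 219 CPM in mice 1 to 5. In ORX_Nx it was 26.7, 21.6, 22.5, 85.6 and 57.5 CPM, and in ORX_IH 39.7, 43.2, 24.6, 70.5 and 36.7 CPM, in the same order of mice. The Sham_Nx mice lay within a narrow band, and the highest orchiectomized library, at 85.6 CPM, lay below the lowest sham library, at 186 CPM.

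Under normoxia orchiectomy lowered C6 6.36-fold, a log2 fold change of -2.67 ± 0.36 (SE) (edgeR BH-adjusted p = 0.000114). In intermittent hypoxia it fell by 2.52 ± 0.34, 5.74-fold (edgeR BH-adjusted p = 0.000272). Only C6 and Selenbp2 of the 7 genes had all 10 orchiectomized libraries below all 9 sham libraries, as had 158 genes, or 0.977%, of those tested. The 2 highest orchiectomized values of C6 in normoxia came from ORX_Nx 4 and ORX_Nx 5, the libraries highest in acute phase and Kupffer cell genes. Without both, C6 fell by 3.53 in normoxia (edgeR BH-adjusted p = 6.62e-07), and the part of those genes in its level was not tested. Over all mice in normoxia 11 of 11 Kupffer cell genes and 11 of 13 acute phase genes rose after orchiectomy, where 7.88% of all genes tested did. The Kupffer cell genes summed to 477, 311 and 266 CPM in ORX_Nx 1, 2 and 3, against 197 to 322 CPM in Sham_Nx. These 2 lists were not counted without ORX_Nx 4 and ORX_Nx 5. In intermittent hypoxia 0 of 11 and 1 of 13 rose, where 1.31% of all genes tested did. The list medians there were 0.55 and 0.88, and the interaction called 0 of 11 and 0 of 13, so a rise in normoxia alone is not shown.

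Susd4 encodes a membrane protein with sushi domains that holds back complement activation at the C3 convertase step. Its identifier is ENSMUSG00000038576. In Sham_Nx it had 17.2, 11.6, 16.9 and 13.6 CPM in mice 2 to 5. In Sham_IH it had 18.0, 14.6, 22.9, 28.2 and 16.2 CPM in mice 1 to 5. In ORX_Nx it had 2.44, 3.69, 4.07, 6.70 and 2.43 CPM, and in ORX_IH 3.16, 5.47, 3.57, 16.5 and 2.69 CPM. In 9 of 10 orchiectomized libraries it was below every sham library, and ORX_IH 4, at 16.5 CPM, lay among the sham values.

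Susd4 fell by 1.93 ± 0.44 with orchiectomy under normoxia, 3.804-fold (edgeR BH-adjusted p = 0.0085), with no overlap between the groups, as 6.65% of all genes tested showed in that direction. In intermittent hypoxia it fell by 1.66 ± 0.41, 3.16-fold (edgeR BH-adjusted p = 0.036), with overlap. The second call was lost when any of 8 single libraries was left out (Sham_IH 1, 3, 4 or 5, or ORX_IH 1, 2, 3 or 5), with adjusted p up to 0.102. Without ORX_IH 4 the fall in intermittent hypoxia was larger, at -2.43 (edgeR BH-adjusted p = 8.85e-05). It was also lost without the libraries high in muscle genes (-1.38, adjusted p = 0.337) or in pancreatic genes (-1.55, adjusted p = 0.164), with the compared groups alone (-1.65, 0.0655) and with libraries 1 to 16 alone (-1.54, 0.0982). Without the muscle-rich libraries the call in normoxia was lost as well (-1.98, adjusted p = 0.0553). That fit left mice 4 and 5 in Sham_Nx and mice 3, 4 and 5 in ORX_IH. The part of fewer libraries and that of muscle genes in the lost calls were not tested.

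The other complement genes showed where C6 and Susd4 stand within their pathway. Of 17 others tested, a list of terminal components and regulators, 3 fell, 2 rose and 12 did not pass after orchiectomy in normoxia, and their median log2 fold change was 0.04. Of all genes tested 6.46% fell and 7.88% rose. The 3 that fell all encode partners of C6 in the attack complex: C8a at -1.22 ± 0.29 (edgeR BH-adjusted p = 0.0114), C8b at -1.10 ± 0.24 (0.00753) and C9 at -1.06 ± 0.31 (0.028). C3, the central component of the cascade, rose by 0.64 ± 0.11 (0.00134), and Cr1l, a membrane regulator named after its value was seen, rose by 0.24 ± 0.06 (0.0179). The other attack complex genes did not pass: Hc, which encodes C5, had -0.02 ± 0.14, C7 had 0.03 ± 0.50 and C8g had -0.15 ± 0.12.

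In intermittent hypoxia 2 of the 17 fell and 0 rose: C8a at -1.16 ± 0.28 (edgeR BH-adjusted p = 0.0321) and C8b at -0.97 ± 0.23 (0.0286), with C9 at -1.08 ± 0.29 (0.0527). Of all genes tested 1.57% fell and 1.31% rose. Without ORX_Nx 4 and ORX_Nx 5 the falls in normoxia were -1.77 for C8a, -1.65 for C8b and -1.71 for C9, each larger than over all 5 mice, and the part of acute phase and Kupffer cell genes in these levels was not tested. Without the 4 muscle-rich libraries 0 of the 17 passed in either exposure, with C8a at -1.09 and C8b at -1.08 in normoxia. Without scaling factors 4 of the 17 rose and 2 fell in normoxia, and 2 rose and 2 fell in intermittent hypoxia. The signs of the 5 genes called in normoxia were the same under each scaling of the libraries, and C9 lost its call without scaling factors (-0.91, adjusted p = 0.055) and without the pancreas-rich libraries (-1.07, 0.0768).

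**Figure D2:**
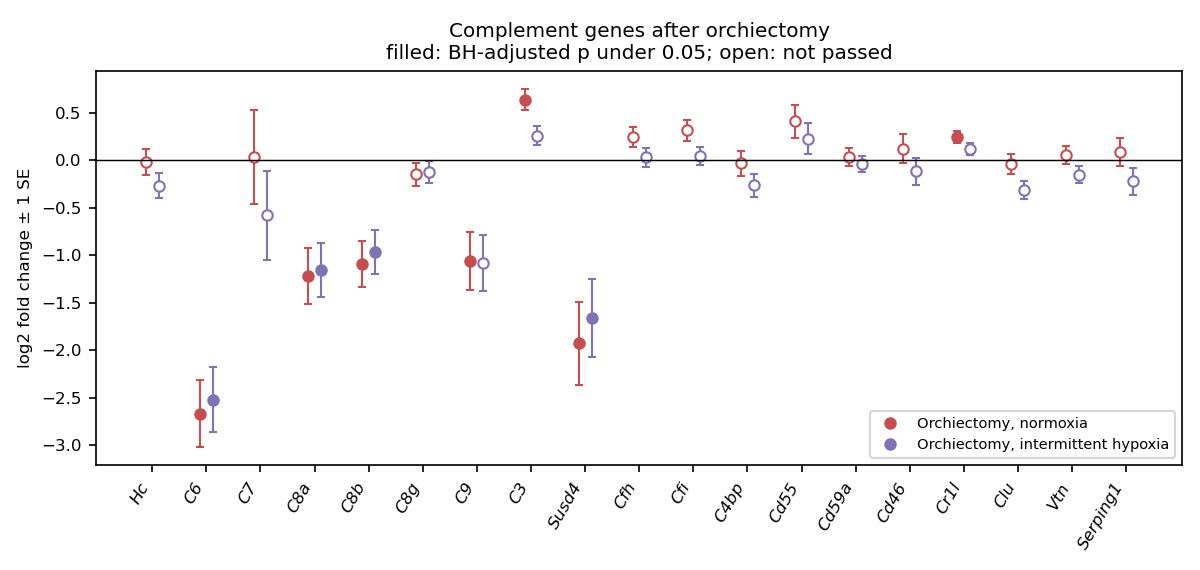
Points are log2 fold changes after orchiectomy with bars of 1 SE for 19 complement genes, red in normoxia and purple in intermittent hypoxia, filled where the BH-adjusted p is under 0.05. C6 and Susd4 lie lowest, C8a, C8b and C9 lie near -1, and C3 is above 0 in normoxia.

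Selenbp2 encodes a liver protein first found as a binder of acetaminophen and selenium, and its copy Selenbp1 a methanethiol oxidase, which breaks down a sulfur compound made by gut bacteria. The identifiers are ENSMUSG00000068877 for Selenbp2 and ENSMUSG00000068874 for Selenbp1. Selenbp2 had 228, 92.5, 243 and 75.3 CPM in Sham_Nx mice 2 to 5. In Sham_IH it had 164, 32.4, 119, 111 and 75.0 CPM in mice 1 to 5. In ORX_Nx it had 3.72, 5.04, 6.66, 2.92 and 12.8 CPM, and in ORX_IH 5.39, 7.58, 6.13, 17.1 and 5.67 CPM. Sham mice thus spread from 32.4 to 243 CPM, and the highest orchiectomized library, ORX_IH 4, had 17.1 CPM.

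Under normoxia Selenbp2 fell 26.1-fold, a log2 fold change of -4.71 ± 0.54 (edgeR BH-adjusted p = 2.35e-05). In intermittent hypoxia it fell 11.9-fold, a log2 fold change of -3.57 ± 0.51 (edgeR BH-adjusted p = 0.000428). These calls and those of C6 were made in each of the 32 alternative analyses of either comparison, and Selenbp2 had -5.36 in normoxia with the libraries numbered 1 to 16 alone. Among all genes tested the fold of Selenbp2 ranked 60th from the bottom in normoxia and 28th in intermittent hypoxia.

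Selenbp1 had 145.8 CPM in the lowest and 160.8 CPM in the highest of the 4 Sham_Nx mice, with a median of 153.8 CPM. In Sham_IH it had 171, 174, 191, 174 and 169 CPM in mice 1 to 5. In ORX_Nx it had 187, 225, 199, 170 and 165 CPM, and in ORX_IH 170, 217, 174, 241 and 182 CPM. Every library of the other 3 groups lay above every Sham_Nx library, by a margin that was small beside the level.

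Selenbp1 differed by 0.30 ± 0.10 with orchiectomy under normoxia (edgeR BH-adjusted p = 0.0561), with no overlap, as 5.69% of all genes tested showed in that direction. Under intermittent hypoxia it differed by 0.16 ± 0.10 (edgeR BH-adjusted p = 0.403), with overlap. Averaged over exposures it rose by 0.23 ± 0.07 (edgeR BH-adjusted p = 0.0245), a call lost without Sham_Nx 2 (adjusted p = 0.0515) or without the 4 muscle-rich libraries (0.108). In normoxia Selenbp1 passed without ORX_Nx 4 (adjusted p = 0.0472), ORX_Nx 5 (0.0426), ORX_IH 1 (0.0499) or ORX_IH 4 (0.0313), without both ORX_Nx 4 and ORX_Nx 5 (0.403, adjusted p = 0.0243), with DESeq2 (0.0321) and with the stricter count filter (0.0426). Without library scaling factors the median of all genes was 0.14 in normoxia and 0.127 in intermittent hypoxia, and Selenbp1 was called in each exposure, at 0.42 in normoxia and 0.29 in intermittent hypoxia. The call in intermittent hypoxia then had an adjusted p of 0.0374, and the sign was positive under all scalings.

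The pair shares sequence, which bears on how reads were assigned. Of the distinct 31-base words in the GENCODE M21 transcripts of Selenbp1, 61.1% also occurred in those of Selenbp2, and 59.3% the other way. The first listed transcripts of the genes were 98.1% identical over 1719 aligned bases. The other 5 genes shared at most 0.495% of such words with all other genes together. Counts of the pair were therefore also added: the sum was 234 to 392 CPM in Sham_Nx, 206 to 335 in Sham_IH, 173 to 230 in ORX_Nx and 176 to 259 in ORX_IH.

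The sum fell by 0.68 ± 0.17 with orchiectomy under normoxia (edgeR BH-adjusted p = 0.0127) and had a difference of -0.43 ± 0.16 in intermittent hypoxia (0.165). Selenbp2 made up 47.9 ± 15.7% (SD, n = 4) of the pair's counts in Sham_Nx and 34.5 ± 12.3% (SD, n = 5) in Sham_IH. In orchiectomized mice its share was 3.25 ± 2.28% (SD, n = 5) in normoxia and 3.90 ± 1.53% (SD, n = 5) in intermittent hypoxia. The lowest sham share was 15.7% and the highest orchiectomized share 7.19%, so the groups did not overlap. How reads that fit both genes were divided was not tested.

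**Figure D3:**
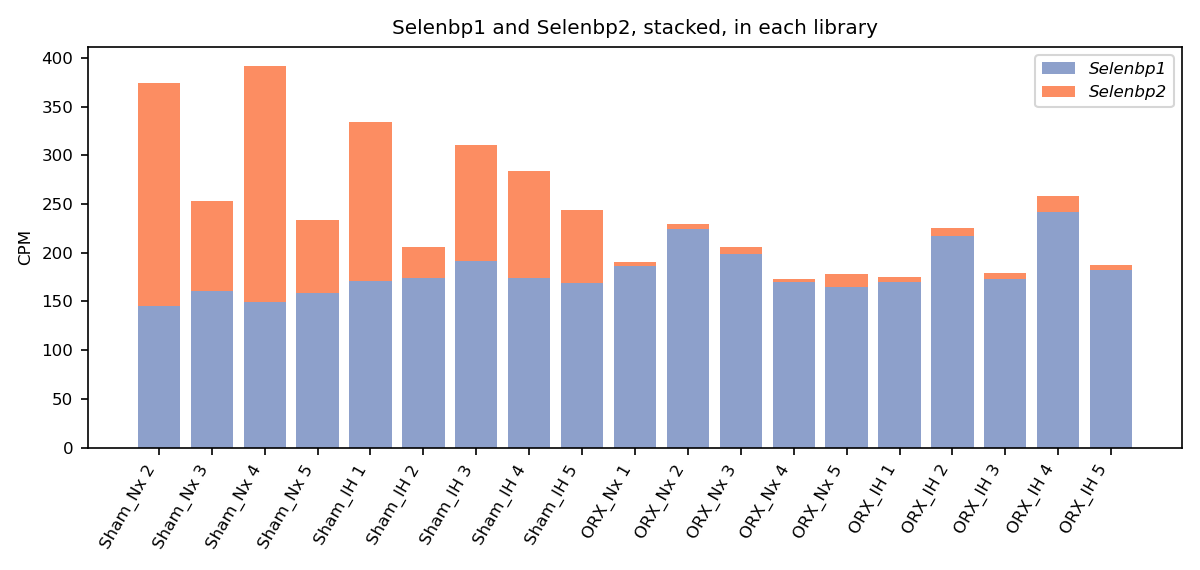
Each bar is 1 library, with the CPM of Selenbp1 in blue and that of Selenbp2 stacked on it in orange, on an axis from 0. The orange part takes 15.7 to 61.9% of a sham bar and 1.69 to 7.19% of an orchiectomized bar, while the blue part is of similar height throughout.

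Other genes of selenium binding and sulfur oxidation mostly did not pass. Of 15 others tested, 1 rose and 1 fell in normoxia: Tstd1, a thiosulfate sulfurtransferase, rose by 1.24 ± 0.22 (edgeR BH-adjusted p = 0.00164), and Csad, the decarboxylase that leads to taurine, fell by 1.64 ± 0.26 (0.00059). In intermittent hypoxia Csad fell by 1.48 ± 0.25 (0.00213) and 0 rose, and this call was lost without the muscle-rich libraries (-1.20, adjusted p = 0.0741). Without scaling factors 3 rose and 1 fell in normoxia. The median of the 15 was 0.06 in normoxia and -0.02 in intermittent hypoxia. Of all genes tested 7.88% rose and 6.46% fell in normoxia, and 1.31% rose and 1.57% fell in intermittent hypoxia.

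Moxd1, identifier ENSMUSG00000020000, encodes a monooxygenase of the endoplasmic reticulum related to the enzyme that makes noradrenaline. It was near the limit of detection, so counts are given: 40, 1, 16 and 41 in Sham_Nx mice 2 to 5, and 7, 0, 131, 28 and 1 in Sham_IH mice 1 to 5. In ORX_Nx it had 0, 0, 2, 5 and 0 counts, and in ORX_IH 7, 0, 0, 0 and 0. The group totals were 98, 167, 7 and 7 counts, in the order in which the groups were introduced. In 7 of 10 orchiectomized and 1 of 9 sham libraries Moxd1 had no count, and the groups overlapped. A count of 0 allows up to 3 counts, or 0.0431 to 0.102 CPM across libraries, counting error only, so absence is not shown.

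The fitted difference of Moxd1 after orchiectomy was -4.11 ± 1.49 in normoxia (edgeR BH-adjusted p = 0.0705) and -5.05 ± 1.45 in intermittent hypoxia (0.0687). With 1 library left out these ran from -5.34 (without ORX_Nx 4) to -3.67 (without Sham_Nx 2) in normoxia, and from -8.51 (without ORX_IH 1) to -2.88 (without Sham_IH 3) in intermittent hypoxia. Averaged over exposures it fell by 4.58 ± 1.04 (edgeR BH-adjusted p = 0.00496). Moxd1 entered the test through sham libraries only, so this call is not independent evidence of a fall. Over the alternatives the average lay between -6.39 and -3.35, and limma-voom lost the call (adjusted p = 0.0799). It was -3.50 without Sham_IH 3, -6.31 without ORX_IH 1 and -5.19 without ORX_Nx 4. Without Sham_IH 3, with 131 counts, Moxd1 passed in normoxia (-4.11, adjusted p = 0.0375), and without Sham_IH 2, with 0, it passed in intermittent hypoxia (-5.38, adjusted p = 0.0439). Of its relatives Dbh was not tested, and Pam, which amidates peptide hormones, rose by 0.39 ± 0.13 in normoxia (edgeR BH-adjusted p = 0.0434) and had 0.21 in intermittent hypoxia. The call of Pam was lost without the muscle-rich libraries (0.45, adjusted p = 0.122), without the pancreas-rich libraries (0.37, 0.0918) and without ORX_Nx 4 and ORX_Nx 5 (0.27, 0.234).

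Cib3, identifier ENSMUSG00000074240, belongs to the calcium and integrin binding family and is best known from the mechanotransduction complex of inner ear hair cells. It too was scarce, with 7 to 61 counts per library. It had 0.71, 0.88, 0.55 and 0.92 CPM in Sham_Nx mice 2 to 5. In Sham_IH it had 0.50, 0.47, 0.36, 1.08 and 0.44 CPM in mice 1 to 5. In ORX_Nx it had 0.13, 0.15, 0.37, 0.23 and 1.03 CPM, and in ORX_IH 0.10, 0.23, 0.14, 0.26 and 0.19 CPM. ORX_Nx 5 stood among the highest of all libraries, while all 5 ORX_IH libraries lay below every sham library.

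Cib3 had a difference of -1.04 ± 0.49 with orchiectomy under normoxia (edgeR BH-adjusted p = 0.159). Under intermittent hypoxia the difference was -1.66 ± 0.50 (edgeR BH-adjusted p = 0.0818), with no overlap, as 3.07% of all genes tested showed in that direction. Averaged over exposures it fell by 1.35 ± 0.35 (edgeR BH-adjusted p = 0.0107), a call lost without the 4 muscle-rich libraries (-1.27, adjusted p = 0.0933). Without ORX_Nx 5, Cib3 passed in both exposures, at -1.76 in normoxia (adjusted p = 0.00888) and -1.65 in intermittent hypoxia (0.0166), as it did without both ORX_Nx 4 and ORX_Nx 5 (0.0216 and 0.0188). In normoxia it also passed with limma-voom (-1.46, 0.0283) and with libraries 1 to 16 alone (-1.67, 0.0416), and in intermittent hypoxia with DESeq2 (0.0266) and with the compared groups alone (0.0369). Its relatives Cib1 and Cib2 fell in normoxia, at -0.25 ± 0.07 (edgeR BH-adjusted p = 0.0206) and -0.52 ± 0.16 (0.035), and neither passed in intermittent hypoxia. Both calls were lost without scaling factors (Cib1 -0.13, Cib2 -0.41) and without the muscle-rich libraries (-0.31 and -0.52), the pancreas-rich libraries (-0.27 and -0.49) or ORX_Nx 4 and ORX_Nx 5 (-0.25 and -0.53).

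Nudt7, identifier ENSMUSG00000031767, is the Nudix hydrolase that splits coenzyme A and its acyl esters inside peroxisomes. It had 577, 223, 268 and 317 CPM in Sham_Nx mice 2 to 5. In Sham_IH it had 514, 283, 295, 589 and 506 CPM in mice 1 to 5. In ORX_Nx it had 217, 150, 105, 128 and 98.6 CPM, and in ORX_IH 124, 174, 217, 298 and 140 CPM. In normoxia every orchiectomized library was below every sham library, if narrowly at 217 against 223 CPM. Of all genes tested 6.65% showed no overlap in that direction. In intermittent hypoxia ORX_IH 4 reached the lower sham values.

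Nudt7 fell by 1.31 ± 0.32 with orchiectomy under normoxia, 2.48-fold (edgeR BH-adjusted p = 0.0114). In intermittent hypoxia it fell by 1.20 ± 0.30, 2.29-fold (edgeR BH-adjusted p = 0.0371). The call in normoxia was lost without Sham_Nx 2, the sham library at 577 CPM (-0.95, adjusted p = 0.0566), without the 4 muscle-rich libraries (-1.08, 0.0908), without ORX_Nx 4 and ORX_Nx 5 (-1.14, 0.0663) and with libraries 1 to 16 alone (-1.26, 0.0576). The call in intermittent hypoxia was lost without any of 7 single libraries (Sham_IH 1, 4 or 5, or ORX_IH 1, 2, 3 or 5), with adjusted p up to 0.111. It was also lost without the muscle-rich libraries (-0.997, 0.25), without the pancreas-rich libraries (-1.02, 0.225) and with libraries 1 to 16 alone (-1.04, 0.151).

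Of 19 other Nudix hydrolases tested, 1 rose and 0 fell in normoxia, and 0 passed in intermittent hypoxia (edgeR). The one that rose was Nudt19, the other peroxisomal coenzyme A hydrolase of the family, by 0.28 ± 0.09 (edgeR BH-adjusted p = 0.0466). Of 15 other genes of coenzyme A synthesis and turnover, Nudt19 included, 4 rose and 0 fell in normoxia, where 7.88% of all genes tested rose, with the vitamin transporter Slc5a6 at 0.63 ± 0.18 (0.0238), the pantetheinase Vnn3 at 0.56 ± 0.13 (0.0107) and the phosphodiesterase Enpp1 at 0.45 ± 0.10 (0.00942). In intermittent hypoxia 0 of the 15 passed (edgeR). Averaged over exposures 2 of the 19 Nudix genes rose and 1 fell, where 11.8% of all genes tested rose and 10.1% fell. The gene that fell was Nudt14 at -0.33 ± 0.09 (edgeR BH-adjusted p = 0.0121), named after its value was seen. These counts moved with the libraries kept and with scaling: 1 of the 15 rose without the muscle-rich libraries, 2 without the pancreas-rich libraries, and 6 without scaling factors, which also gave 3 in intermittent hypoxia. Without scaling factors 4 of the 19 Nudix genes rose in normoxia and 3 in intermittent hypoxia, and Nudt19 lost its call without the muscle-rich or the pancreas-rich libraries.

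Among 27 peroxisome genes, 7 fell and 2 rose in normoxia, where 6.46% of all genes tested fell and 7.88% rose. In intermittent hypoxia 3 of the 27 fell and 1 rose, where 1.57% of all genes tested fell and 1.31% rose. Scp2, a sterol carrier and thiolase, fell by 0.70 ± 0.10 in normoxia (edgeR BH-adjusted p = 0.000194) and by 0.60 ± 0.09 in intermittent hypoxia (0.000898). Phyh, which starts the breakdown of phytanic acid, had -0.65 ± 0.09 (0.000113) and -0.70 ± 0.08 (5.43e-05) and fell in both. Catalase, Cat, fell by 0.52 ± 0.13 in normoxia (0.0133). Abcd2, a very long chain fatty acid importer, rose by 1.33 ± 0.18 in normoxia (0.000101) and by 1.11 ± 0.16 in intermittent hypoxia (0.000506). The signs of the peroxisome genes called were the same under each scaling, and 4 fell in normoxia without the muscle-rich libraries. The fall of Nudt7 by 1.31 was larger than that of each peroxisome gene of the list in normoxia, a difference that was not tested.

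Intermittent hypoxia did not change any of the 7 genes at the threshold. In sham-operated mice 0 of 7 were called, against 0.303% of all genes tested, and 0 of 7 had an unadjusted p under 0.05, against 13.1% (edgeR). In orchiectomized mice 0 of 7 were called, against 0.0742%, and averaged over operations 0 of 7, against 4.53%. At an unadjusted p under 0.05 it was again 0 of 7, against 17.1% and 21.6% of all genes tested. DESeq2, limma-voom and limma-trend also called 0 of 7 in each. The 95% interval of the log2 fold change was -0.813 to 0.535 for C6 and -1.61 to 0.26 for Selenbp2 in sham-operated mice.

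Selenbp1 showed no overlap between Sham_Nx and Sham_IH and a difference of 0.19 ± 0.10 (edgeR BH-adjusted p = 0.437), where 4.31% of all genes tested lay wholly higher. Susd4 had 0.43 ± 0.43 in sham-operated mice (adjusted p = 0.734) and 0.70 ± 0.41 in orchiectomized mice (0.406), and without ORX_IH 4 the second value was -0.07. Cib3 had -0.41 ± 0.48 in sham-operated mice (0.79) and -1.02 ± 0.50 in orchiectomized mice (0.306). The value in orchiectomized mice ran from -1.25 to -0.283 over the alternatives. In ORX_Nx 5 Cib3 had 1.03 CPM, next to 0.371 CPM in that group. For Moxd1 in orchiectomized mice both groups held 7 counts and no fold is given. For intermittent hypoxia averaged over operations, where 1.96% of all genes tested rose and 2.57% fell, Cd46, a complement regulator, rose by 0.38 ± 0.10 (edgeR BH-adjusted p = 0.0425), and Nudt22 by 0.23 ± 0.05 (0.0165). Of the 27 peroxisome genes 4 fell, among them Pex11a at -0.68 ± 0.15 and Crot, a carnitine acyltransferase, at -0.44 ± 0.08.

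**Figure D4:**
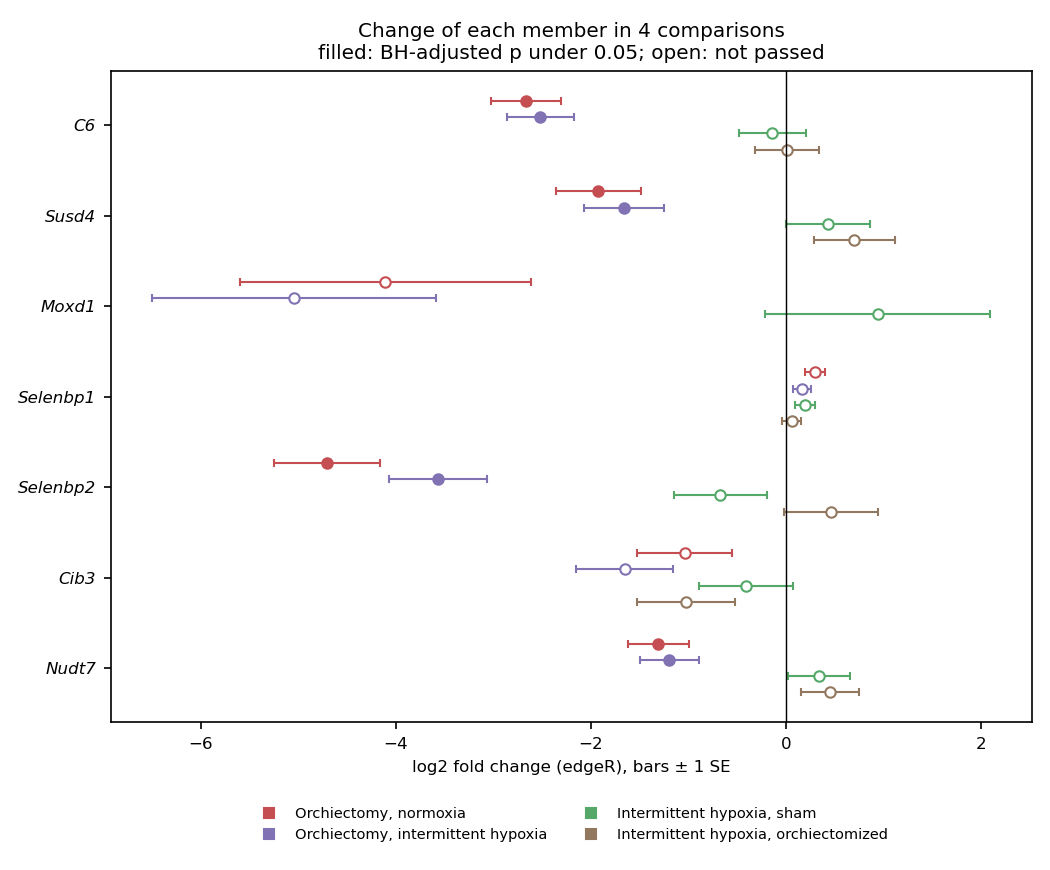
Points are edgeR log2 fold changes with bars of 1 SE for the 7 genes in 4 comparisons, filled where the BH-adjusted p is under 0.05, without Moxd1 in the hypoxia comparison of orchiectomized mice. The filled points are the 2 orchiectomy comparisons of C6, Susd4, Selenbp2 and Nudt7.

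With both treatments against neither, ORX_IH against Sham_Nx, 3 of the 7 fell where 5.1% of all genes tested did, and Selenbp1 rose where 3.53% did. C6 had -2.66 ± 0.36 (edgeR BH-adjusted p = 0.000144), Selenbp2 -4.25 ± 0.53 (7.09e-05) and Cib3 -2.06 ± 0.51 (0.017). Selenbp1 rose by 0.36 ± 0.10 (0.0346), a call lost without any Sham_Nx library, without ORX_IH 2 or without ORX_IH 4, with adjusted p up to 0.101, and also lost with no count filter (0.0519), with the compared groups alone (0.0594) and with libraries 1 to 16 alone (0.0643). Cib3 lost its call without Sham_Nx 5 (adjusted p = 0.0503). Without the muscle-rich libraries the adjusted p was 0.315 for Selenbp1 and 0.304 for Cib3, and without the pancreas-rich libraries 0.069 and 0.126. Susd4 had -1.23 ± 0.43 (0.0831) and Nudt7 -0.86 ± 0.31 (0.0963), and without ORX_IH 4 both passed, at -1.996 (0.000514) and -1.08 (0.0432). Susd4 also passed with limma-voom (-1.53, 0.0138) and limma-trend (-1.58, 0.0236), and Moxd1 passed without Sham_IH 3 (-4.12, 0.0499). This comparison shares Sham_Nx with that of orchiectomy in normoxia and ORX_IH with that in intermittent hypoxia.

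Whether orchiectomy acted differently in the 2 exposures was tested as an interaction, and 0 of 7 genes were called. Over all genes 0 of 16164 were called by edgeR, 1025, or 6.34%, had an unadjusted p under 0.05 (0 of the 7), and DESeq2 called 62, with 0 of the 7 among them. The largest interaction among the 7 was that of Selenbp2, whose fall was smaller in intermittent hypoxia by 1.14 ± 0.68, with an unadjusted p of 0.111 and an edgeR BH-adjusted p of 0.805. Its 95% interval ran from -0.20 to 2.47, so it includes 0. For C6 the interaction was 0.15 ± 0.48, with an interval from -0.78 to 1.08 (adjusted p = 0.979).

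A single mouse, ORX_IH 4, stood out across most of the genes. It had the highest level of its group for C6, Susd4, Selenbp1, Selenbp2, Cib3 and Nudt7, 6 of the 7, while 23.5% of all genes tested were highest in that library. Of 15 other male-biased liver genes, Sham_Nx 2 was highest of its group for 8 and Sham_IH 4 for 9. ORX_IH 4 was highest of its group for 12 of them. In ORX_IH 4 the hepatocyte markers summed to 129000 CPM, the highest of all 19 libraries, close to 128000 in ORX_Nx 2 and 127000 in ORX_IH 2. Erythroid markers in ORX_IH 4 summed to 270 CPM, the lowest. Muscle genes summed to 5.23 CPM there, pancreatic genes to 10.5 CPM and Kupffer cell genes to 384 CPM, the last the highest of its group. Their part in the levels of ORX_IH 4 was not tested. In Sham_IH, mouse 2 was lowest for 5 of the 7 genes, where 16.9% of all genes tested were lowest in that library. In Sham_Nx, mouse 2 was highest for 4 of the 7, where 26.6% of all genes tested were highest in that library. In ORX_Nx, C6 and Susd4 were highest in mouse 4, and Selenbp2 and Cib3 in mouse 5.

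**Figure D5:**
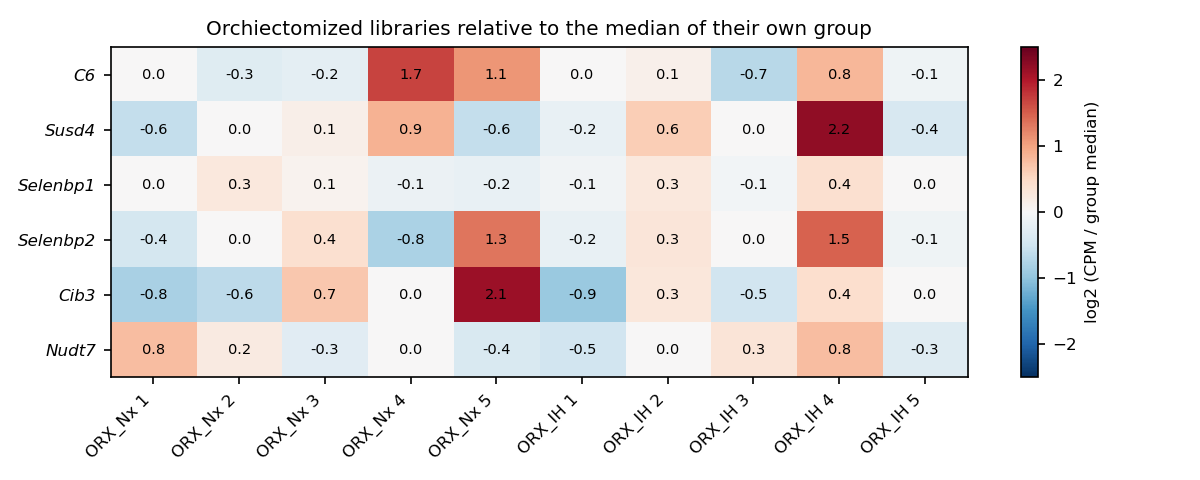
Each cell gives the log2 ratio of a gene's CPM in 1 orchiectomized library to the median of its own group, red above and blue below, for 6 genes (Moxd1 is left out because most values are 0). The column of ORX_IH 4 is above 0 for all 6 genes, with Susd4 at 2.21 and Selenbp2 at 1.48.

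The 15 other male-biased genes give the scale of the response. After orchiectomy 13 of them fell in normoxia, where 6.46% of all genes tested did (edgeR BH-adjusted p under 0.05). In intermittent hypoxia 11 fell, where 1.57% of all genes tested did. The list medians were -1.97 and -1.80. The list was chosen with results of these data known and holds Elovl3 and Hsd3b5, which also checked the operation label. Its counts are therefore not independent evidence. In intermittent hypoxia 6 fell without the muscle-rich and 8 without the pancreas-rich libraries. Obp2a, an odorant-binding protein, had -6.68 ± 0.84 in normoxia, the steroid dehydrogenase Hsd3b5 -6.38 ± 0.66, the fatty acid elongase Elovl3 -5.15 ± 0.49 and the serpin Serpina1e -4.76 ± 0.97, and without ORX_Nx 4 and ORX_Nx 5 Serpina1e had -7.85 and Obp2a -6.12. Selenbp2 had -4.71 in normoxia and -3.57 in intermittent hypoxia, where Obp2a had -6.90, Serpina1e -5.55, Elovl3 -4.63 and Hsd3b5 -3.92. Hsd3b5 was the one gene of the list called for intermittent hypoxia averaged over operations, at 1.72 ± 0.40 higher (edgeR BH-adjusted p = 0.0229). Of all genes tested 1.96% rose in that comparison. Hsd3b5 had 0.391 to 2.56 CPM in ORX_Nx and 1.77 to 27.7 CPM in ORX_IH. The sham groups overlapped widely, at 74.8 to 224 CPM in Sham_Nx and 96.2 to 246 CPM in Sham_IH.

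Genes whose levels followed those of the 7 most closely were ranked by the root mean square distance of log2 CPM relative to the Sham_Nx mean, over 19 libraries. Nearest to C6 were Gstp1, a glutathione transferase, at 0.38, the laminin gene Lama3 at 0.53 and the calpain Capn8 at 0.65. Nearest to Susd4 were Cyp7b1, an oxysterol hydroxylase, at 0.44, Ttc39c at 0.50 and Serpine2 at 0.51. Selenbp2 had no such close partner: the major urinary protein genes Mup21 and Mup20 lay at 0.74 and 1.07, and Capn8 at 1.09. Nudt7 was nearest to the carboxylesterase Ces3a at 0.35, the aldehyde oxidase Aox3 at 0.39 and Hsd3b2 at 0.40.

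Cib3 was nearest to C9 at 0.58, Gstp2 at 0.62 and the haem synthesis gene Alas2 at 0.65. Moxd1 was far from all genes, with Capn8 at 1.69 first, then Lama3 and Gstp1 both at 1.84. Selenbp1 was nearest to the folate enzyme Mthfd1 at 0.10, Zfp629 at 0.10 and the histidine-degrading enzyme Uroc1 at 0.11. Between the 7 themselves the closest pair was Susd4 and Nudt7 at 0.79, and the farthest was Selenbp1 and Selenbp2 at 3.56.

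Per transcript length the 7 genes spanned a wide range of levels. In Sham_Nx, length-normalised levels (RPKM) were highest for Nudt7 at 364 ± 166 (SD, n = 4), followed by Selenbp2 at 137.5 ± 75.8, C6 at 114.9 ± 3.61 and Selenbp1 at 101 ± 4.80. The libraries of Nudt7 lay above those of Selenbp2, those of Selenbp2 overlapped with those of C6, and those of C6 lay above those of Selenbp1. Susd4 was far lower, at 6.29 ± 1.15 RPKM, then Cib3 at 0.97 ± 0.22 and Moxd1 at 0.16 ± 0.13. In ORX_Nx the order was Nudt7 at 147 ± 50.1 (SD, n = 5), Selenbp1 at 124 ± 15.9, C6 at 18.1 ± 11.9, Selenbp2 at 5.36 ± 3.39 and Susd4 at 1.64 ± 0.74 RPKM. There the libraries of Nudt7 overlapped with those of Selenbp1, those of C6 with those of Selenbp2, and those of Selenbp2 with those of Susd4.

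A test across all 4 groups at once is given in the authors' deposited table, with q = 0.000142 for Selenbp2, 0.000171 for C6, 0.00799 for Susd4 and 0.023 for Nudt7. In the same authors' deposited table Cib3 has q = 0.073, Selenbp1 q = 0.223 and Moxd1 q = 0.263.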

How the data were processed

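Per the labels, poly(A) RNA of 20 livers was sequenced from stranded libraries. Values of 19 of these libraries were analysed here, without Sham_Nx mouse 1. Per the submitters' processing notes bcl2fastq 2.20, fastp 0.23.2, FastQC 0.11.9, MultiQC 1.12, kallisto 0.46.1 and build GRCm39 were used. The authors deposited estimated counts per gene, of which 27.5% of values were not whole (tolerance 1e-06), with a mean transcript length. They also deposited log2 normalized values, which lay at a median of 0.0784 from log2 TMM-scaled RPKM over 16125 genes, and an F-statistic score, a p-value and a q-value per gene. Neither the formula of the deposited log2 values nor the step from transcripts to genes was stated. Column names tied every value column to 1 sample.

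Counts were rounded and tested with edgeR 4.0.16 (R 4.3.3, limma 3.58.1): filterByExpr with a minimum count of 10, TMM scaling, and a quasi-likelihood fit of the 4 groups together, so that they share 1 estimate of the spread. This left 16164 genes, over which p-values were adjusted by the method of Benjamini and Hochberg, with calls under 0.05. CPM used the TMM-scaled total of tested genes. The SE is the log2 fold change over the square root of its F, and 95% intervals use the normal quantile. Estimated counts from kallisto split reads between genes of shared sequence. Between replicates the counts differed far beyond sampling noise, with a chi-square per degree of freedom of 20.7 to 198, so each library was kept as its own sample. A count of 0 allows 3 counts, 0.102 CPM in the shallowest and 0.0431 CPM in the deepest library. The fit was tested on simulated data. Sequences and gene order were read with Biopython 1.88 and pandas 2.3.3 from tables of the older build GRCm38, so no gene coordinates are printed, only promoter windows.

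The 7 genes and all gene lists were chosen with earlier results of these data known. Named beside the 7 genes were, per list, up to 4 genes of the largest change called after orchiectomy and up to 2 called for intermittent hypoxia, the 3 nearest genes of each member with a mean of at least 1 CPM, and 3 androgen-dependent genes that check the labels. Alternatives were DESeq2 1.42.0, limma-voom, limma-trend on the deposited log2 values, other scalings, count filters, fits of the compared groups alone, the replicate number as a block, the libraries numbered 1 to 16 alone, and each library left out. Chosen after seeing the data were the fits without the 4 libraries highest in muscle genes (ORX_IH 1, ORX_IH 2, Sham_Nx 2 and Sham_Nx 3), without the 3 highest in pancreatic genes (Sham_IH 5, Sham_Nx 5 and ORX_IH 1) and without ORX_Nx 4 and ORX_Nx 5, and the summed counts of the Selenbp pair.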

Additional observations from a re-analysis of the deposited data

Results flagged for a closer look

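In each of 28 sets of values, 7 genes in 4 groups, the highest or the lowest library was compared with the spread of its group, and in 7 sets the gap to the nearest other library took up more of the range than Dixon's 95% limit allows. For independent sets of normally distributed values chance gives this in about 1 of 20. These sets share libraries and some values lie near 0, so that rate need not hold here. Whether 7 of 28 is an excess was not tested. Susd4 had 16.5 CPM in ORX_IH 4, next to 5.47 CPM, and Selenbp2 had 17.1 CPM in the same library, next to 7.58 CPM. Cib3 had 1.03 CPM in ORX_Nx 5, next to 0.371 CPM, and 1.08 CPM in Sham_IH 4, next to 0.503 CPM. Moxd1 had 3.6 CPM in Sham_IH 3, next to 0.497 CPM, and 0.101 CPM in ORX_IH 1, where the other 4 libraries had no count and any count would have passed the limit. Selenbp1 had 191 CPM in Sham_IH 3, next to 174 CPM.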

How the results depend on the processing

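C6 and Selenbp2 were called lower after orchiectomy in all 32 alternatives of each exposure; the main changes of call of Susd4, Nudt7, Cib3, Moxd1 and Selenbp1 are given beside their results. Of 1751 results of the 7 genes under alternatives, 60 turned direction, 0 of them called. The number of the 7 called after orchiectomy (4 in each exposure) was 2 in normoxia without the muscle-rich libraries. In intermittent hypoxia it was 2 with libraries 1 to 16 alone, 2 without the muscle-rich and 2 without the pancreas-rich libraries, and for both treatments against neither 2 without either set. With 1 library left out it was 2 to 5 in intermittent hypoxia and 2 to 5 for both treatments. The cause was not tested.

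Genes called after orchiectomy in normoxia, 2319, were 918 with the compared groups alone, 1098 with libraries 1 to 16, 422 without the muscle-rich, 1101 without the pancreas-rich and 1475 without ORX_Nx 4 and 5, and 1142 to 2662 with 1 library left out. In intermittent hypoxia, 465 became 867 with DESeq2, 971 without scaling factors, 107, 158 and 912 without the same 3 sets, and 224 to 704. Averaged, 3549 became 1306 and 2063 without the muscle-rich and pancreas-rich libraries. For intermittent hypoxia in sham-operated mice, 49 became 397 with DESeq2, 96 with the stricter filter, 483 with the compared groups alone, 9 with libraries 1 to 16, 2, 0 and 305 without the 3 sets, and 1 to 197. In orchiectomized mice, 12 became 706 with DESeq2, 0 with no count filter, 61 with the stricter filter, 1 with the compared groups alone, 0 with the replicate block, 0 with limma-trend, 0, 0 and 40 without the 3 sets, and 0 to 232. Averaged over operations, 733 became 1444 with DESeq2, 472 with no filter, 380 with libraries 1 to 16, 8 and 157 without the muscle-rich and pancreas-rich libraries, and 288 to 1005. For both treatments, 1394 became 132 and 504 without those sets, and 807 to 1884. For the interaction, 0 became 62 with DESeq2. Without scaling factors the share of calls that were higher was 86.4% against 54.9% after orchiectomy in normoxia, 85.5% against 45.4% in intermittent hypoxia, 89.4% against 53.8% averaged, 76.4% against 40.9% for both treatments and 30.7% against 43.2% for intermittent hypoxia averaged. With RLE factors it was 43.8% against 25% for intermittent hypoxia in orchiectomized mice.

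Directions that turned were these log2 values. For intermittent hypoxia in sham-operated mice, Moxd1 had -0.916 with limma-voom, -0.892 with the replicate block and -0.651 with limma-trend. In orchiectomized mice Moxd1 had 0.007 with RLE, 0.014 without scaling, 0.005 with no filter, 0.015 with libraries 1 to 16 and 1.03 without ORX_Nx 4 and 5, C6 had -0.034 without scaling and Selenbp1 -0.041 without ORX_Nx 4 and 5. Averaged over operations, C6 had 0.01 with limma-voom, 0.038 with libraries 1 to 16 and 0.363 without ORX_Nx 4 and 5. Moxd1 had -0.655 with limma-voom, -0.476 with the block, -0.489 with limma-trend, -1.333 and -0.937 without the muscle-rich and pancreas-rich libraries, and Selenbp2 had 0.077 with libraries 1 to 16 and 0.018 without ORX_Nx 4 and 5. In the interaction Moxd1 had 0.523 with limma-voom, 0.833 with the block, 0.324 with limma-trend and 0.095 without ORX_Nx 4 and 5, where Cib3 had 0.129 and Nudt7 -0.051. With 1 library left out, Moxd1 ran from -1.236 to 1.379 in sham-operated mice, and in orchiectomized mice C6 from -0.246 to 0.427, Susd4 from -0.068 to 0.991, Moxd1 from -3.472 to 1.234 and Selenbp1 from -0.026 to 0.129. Averaged, C6 ran from -0.193 to 0.144, Moxd1 from -1.268 to 1.086 and Selenbp2 from -0.329 to 0.098. In the interaction C6 ran from -0.107 to 0.566, Susd4 from -0.502 to 0.558, Moxd1 from -4.408 to 1.234, Cib3 from -0.838 to 0.113 and Nudt7 from -0.248 to 0.328.

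The labels state no pairing of libraries by mouse number. Over 27 same-numbered pairs the correlation of deviations ran from -0.197 to 0.395, with a median of 0.00369 and 5 above 0.1. The median of other pairs was 0.00522, and 8 of 19 libraries correlated best with their own number. Whether the number marks a pairing was not tested. With the number as replicate block, Nudt7 lost its call after orchiectomy in intermittent hypoxia (-1.18, edgeR adjusted p = 0.0642) and Susd4 gained one for both treatments (-1.42, 0.00962). Moxd1 and Cib3 could not be tested under the stricter filter, nor Moxd1 with only the compared groups in several comparisons, and DESeq2 gave no adjusted p for either gene for intermittent hypoxia in sham-operated mice. Depth limits Moxd1 and Cib3 most, at 0 to 131 and 7 to 61 counts per library.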
